A study of Mus musculus with 24 samples.

Results

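The Kruppel-like factors Klf2, Klf3, Klf4, Klf6, Klf7, Klf10 and Klf13 were followed in mouse Th1 cells. Every probe set (the group of array probes that measures a transcript) whose single gene symbol was 1 of these 7 names was taken, which gave 23 of 45037 probe sets and 7 of 18193 genes. Klf3 had 7 probe sets, Klf6 5, Klf7 4, Klf13 3, Klf4 2, and Klf2 and Klf10 had 1 each. Where a gene had several, the one with the highest mean over all arrays represented it, and the others are given beside it. On the mouse assembly GRCm38.p6 the genes lie on chromosomes 8 (Klf2), 5 (Klf3), 4 (Klf4), 13 (Klf6), 1 (Klf7), 15 (Klf10) and 7 (Klf13).

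The cells were CD4+ T cells of C57BL/6 mice that carry the 2D2 transgene, a T cell receptor for myelin oligodendrocyte glycoprotein, so all 8 groups share this receptor. They were primed on plate-bound antibodies to CD3 and CD28 under Th1 conditions, were taken off the plates after 48 h, and were then expanded over 2 days. Activated cells were then restimulated with both antibodies for 4 h before RNA was taken, and resting cells were not. Each state had 4 groups of 3 arrays, grown with DMSO, Control-768, 0.25 µM I-BET-762 or 0.5 µM I-BET-762, which makes 24 arrays. I-BET-762 inhibits the BET bromodomain proteins, readers of acetylated histones at active genes. DMSO is a solvent, and the series treats Control-768 as a control substance. The concentration of Control-768, and whether the compounds were present during restimulation, are not given in the sources used here.

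Kruppel-like factors are zinc-finger transcription factors that bind GC-rich and CACCC sequences through a shared carboxy-terminal domain and differ in the partners bound by the rest of the protein. Some mainly activate transcription and others recruit corepressors. In T cells the family is best known for Klf2, which keeps naive cells quiescent and in circulation, depends on Foxo1 and is shut off when the T cell receptor is engaged.

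Promoter windows are shown for 4 members, Klf2, Klf3, Klf6 and Klf7, which were chosen with their values known and not by a fixed rule. Each runs from 250 bases before to 50 bases after the gene start in the RefSeq promoter table for GRCm38.p6, which matched 6 of the 7 members and did not include Klf10. Capitals mark any of 7 motifs searched on both strands. These were the family's own core motif CACCC, the GC box written GGGCGG, the E-box written CACGTG, the MEF2-type element, the AP-1-type site written TGANTCA, the forkhead-type site written TGTTTAC and the STAT-type site written TTCNNNGAA. Touching or overlapping matches run together. The windows lie at chr8:72318812-72319111 (plus strand) for Klf2, chr5:64803271-64803570 (plus strand) for Klf3, chr13:5861239-5861538 (plus strand) for Klf6 and chr1:64121340-64121639 (minus strand) for Klf7, the last inside the annotated Klf7 gene.
Klf2: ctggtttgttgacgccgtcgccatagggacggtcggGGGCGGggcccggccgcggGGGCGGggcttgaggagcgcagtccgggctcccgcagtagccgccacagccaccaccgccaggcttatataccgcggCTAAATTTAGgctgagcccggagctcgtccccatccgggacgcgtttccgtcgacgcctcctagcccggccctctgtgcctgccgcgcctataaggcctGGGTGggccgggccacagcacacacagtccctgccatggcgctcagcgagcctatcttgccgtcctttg
Klf3: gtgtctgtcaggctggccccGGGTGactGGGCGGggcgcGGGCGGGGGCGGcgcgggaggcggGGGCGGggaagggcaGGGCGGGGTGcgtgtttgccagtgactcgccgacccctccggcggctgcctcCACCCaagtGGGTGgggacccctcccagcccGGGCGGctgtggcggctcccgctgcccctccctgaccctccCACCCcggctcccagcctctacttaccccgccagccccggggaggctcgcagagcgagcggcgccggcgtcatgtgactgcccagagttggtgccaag
Klf6: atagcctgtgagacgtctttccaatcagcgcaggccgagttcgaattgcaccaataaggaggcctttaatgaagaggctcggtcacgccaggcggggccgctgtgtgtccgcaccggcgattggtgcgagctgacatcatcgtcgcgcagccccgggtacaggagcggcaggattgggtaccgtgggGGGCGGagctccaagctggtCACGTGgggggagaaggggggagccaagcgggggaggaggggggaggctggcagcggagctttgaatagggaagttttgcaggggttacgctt
Klf7: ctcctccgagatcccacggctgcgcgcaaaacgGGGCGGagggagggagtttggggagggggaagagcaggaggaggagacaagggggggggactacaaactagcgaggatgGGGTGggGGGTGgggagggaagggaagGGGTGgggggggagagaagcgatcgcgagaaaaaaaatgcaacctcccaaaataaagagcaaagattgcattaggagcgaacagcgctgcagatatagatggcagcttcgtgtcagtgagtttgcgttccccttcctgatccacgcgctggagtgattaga
CACCC is in 57.5% of 32851 promoter windows of this length, and the GC box is in 35.7%. The Klf3 window held 5 CACCC and 6 GGGCGG matches. The Klf2 window held 1 CACCC and 2 GGGCGG matches and the MEF2-type sequence CTAAATTTAG, which begins 118 bases before the start and belongs to a pattern found in 3.69% of windows. The Klf6 window held 1 GGGCGG match and 1 E-box, a motif present in 7.15% of windows. The Klf7 window held 3 CACCC matches and 1 GGGCGG match. The Klf4 and Klf13 windows, not printed, held 4 and 3 GGGCGG matches, with 1 E-box in Klf4 and 1 CACCC in Klf13. The AP-1-type (7.81% of windows), forkhead-type (3.65%) and STAT-type (8.3%) motifs were not found in any of the 6 windows. A match is a run of letters and was not tested as a binding site.

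Array medians lay between 37.4 and 44.4 intensity units, and Pearson's r between replicates was 0.976 to 0.994 over 18193 genes, which are not independent. Of 5 T cell markers, Cd3e read 1877 to 3677 over the 24 arrays, and Cd4 was the lowest with 364 to 1142.5. Of 4 Th1 markers, Tbx21, the Th1 regulator, read 1039 to 4702, Ifng 523 to 18184, Cxcr3 370 to 1657 and Il12rb2 89 to 301. Tbx21 was higher in resting cells under 0.5 µM I-BET-762 against Control-768 (0.97 ± 0.14, adjusted p = 0.000621), and its part in the results below was not tested. The 3 measured B cell markers reached at most 42.1 (Cd79b). Of 6 myeloid markers, 5 reached at most 55.6 (Lyz2), and Csf1r read 75.5 to 158. Of 4 endothelial markers, 3 reached at most 40.9 (Kdr), and Pecam1, which some T cells also express, read 68.5 to 325. Of 2 markers of CD8 T cells, Cd8b1 read 320 to 859 and Cd8a 51 to 123.5. The summed intensity of 2 CD8 markers was 613 to 907 in activated and 412 to 594 in resting cells under Control-768, and 0 of the 2 passed the test. The 5 measured T cell markers summed to 16640 to 19201 in activated and 21328 to 21706 in resting cells under Control-768, where 1 of the 5, Cd4, fell. Their sum in resting cells was 23563 to 30215 under 0.5 µM I-BET-762, against that Control-768 range, and 0 of the 5 passed. Their part in the results below was not tested. Of 4 genes used to check the stimulation (Il2, Ifng, Cd69 and Egr2), all rose with activation under DMSO, Control-768 and 0.25 µM I-BET-762, and 3 under 0.5 µM. Egr2 had a value of 1.08 ± 0.51 under 0.5 µM (adjusted p = 0.169), and in resting cells it was higher for both I-BET-762 concentrations against both controls (1.62 ± 0.36, adjusted p = 0.031); its part in the comparisons of state under 0.5 µM was not tested. In bulk RNA, fewer cells of a type and less RNA per cell cannot be told apart. Within a state, arrays with the same replicate number deviated together from their group means. The arrays numbered 3 stood apart, while those numbered 1 and 2 were less clearly separated from each other. Calls that change without those arrays, or with the replicate number as a block within a state, are given beside the results they touch. A gene was called changed at an adjusted p under 0.05 in limma's moderated test, with Benjamini-Hochberg adjustment across the 45037 probe sets. Changes are on the log2(intensity + 16) scale ± limma's SE (standard error); a mean intensity is given ± SD over 3 arrays.

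**Figure D1:**
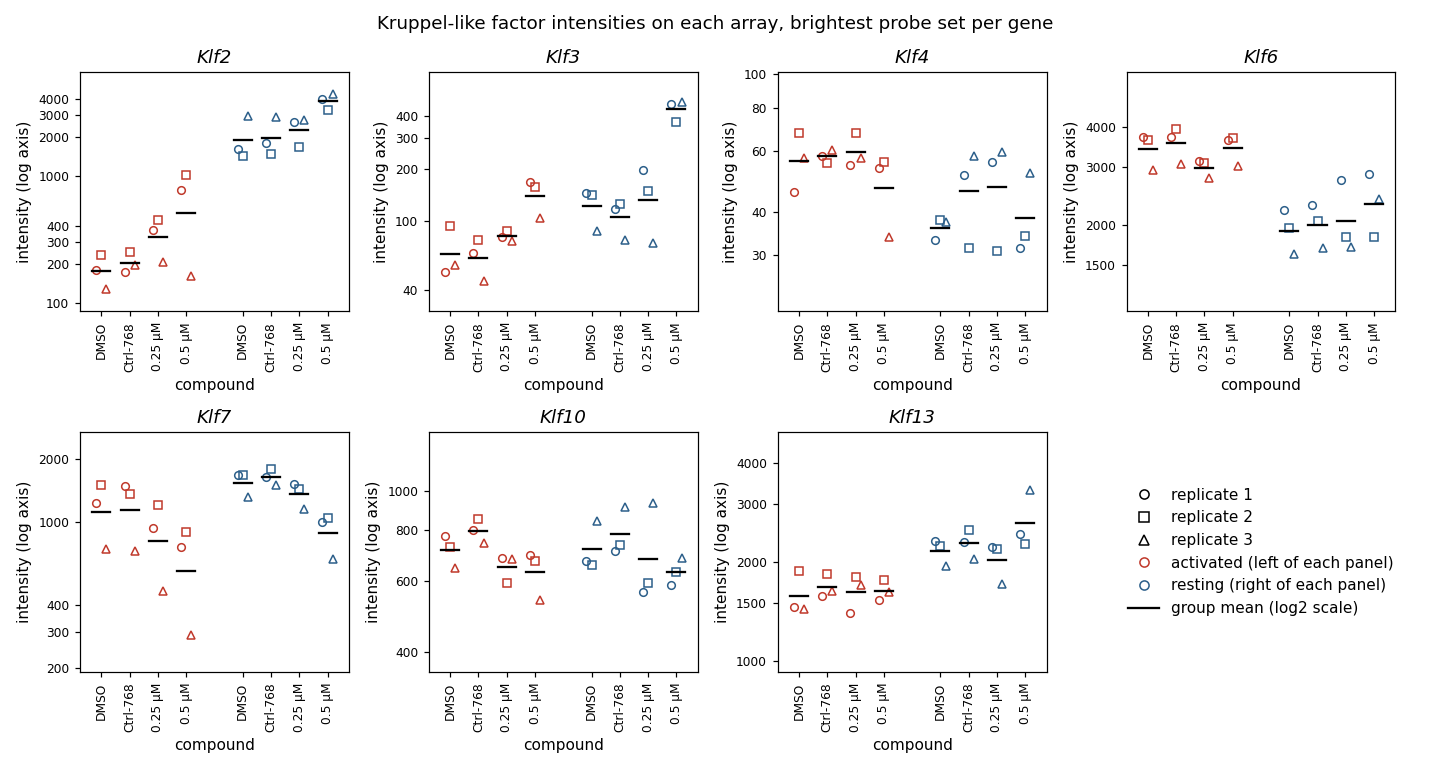
Intensity (log axis) of the brightest probe set of each of the 7 Kruppel-like factors on all 24 arrays, by compound, with activated cells left and resting cells right; the symbol gives the replicate number and the bar the group mean on the log2 scale. Klf2 separates the states, Klf3 stands out in resting cells under 0.5 µM I-BET-762 (372 to 480.1), and Klf4 stays between 30.8 and 67.8.

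After restimulation for 4 h, Klf2 fell under all 4 compounds and Klf6, on its brightest probe set, rose under 3 of them, DMSO, Control-768 and 0.5 µM I-BET-762. Under Control-768, 2 of the 7 members changed, Klf6 higher and Klf2 lower, against a background of 14.8% of all probe sets called in that comparison (7.8% higher and 7.02% lower). Under 0.5 µM I-BET-762, 4 of 7 changed (background 17.8%, 9.91% higher and 7.89% lower), with Klf3 and Klf13 also lower. Under 0.25 µM only Klf2 passed on its brightest probe set (1 of 7, background 10.5%), and under DMSO Klf2 and Klf6 did (2 of 7, background 15.8%). The median change of the 7 members was -0.44 under Control-768 and -0.59 under 0.5 µM I-BET-762, where the median of all probe sets was 0.01 in each. The arrays of the 2 states did not overlap for 5 of 7 members under Control-768, where 32.2% of all probe sets did the same, and for 4 of 7 under 0.5 µM I-BET-762 (29.6%).

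Klf2 (1448890_at) gave the widest separation. In activated cells it read 179.6, 238 and 129 under DMSO, 176, 252 and 196 under Control-768, 375, 445 and 208 under 0.25 µM I-BET-762 and 767, 1013 and 162 under 0.5 µM. In resting cells it read 1626, 1433 and 2921 under DMSO, 1790.1, 1466 and 2910.4 under Control-768, 2626, 1673 and 2755 under 0.25 µM and 3999, 3267 and 4365 under 0.5 µM. The highest activated array (1013) lay below the lowest resting array (1433). The change with activation was -3.31 ± 0.47 under DMSO (adjusted p = 0.000114) and -3.16 ± 0.47 under Control-768 (adjusted p = 0.000171). It was -2.75 ± 0.47 under 0.25 µM I-BET-762 (adjusted p = 0.00106) and -2.89 ± 0.47 under 0.5 µM (adjusted p = 0.000265). Without the arrays numbered 3 the change under 0.5 µM was -2.02 (adjusted p = 0.000395). Fitted on the 2 groups of that comparison alone, the call under 0.5 µM was lost (adjusted p = 0.0628).

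Klf6, a broadly expressed activator that is induced early after many stimuli, was the brightest member and moved the opposite way. It averaged 3577 ± 446 in activated and 2017 ± 308 in resting cells under Control-768 (n = 3 each). The activated arrays read 3721, 3933 and 3077 and the resting arrays 2302, 2057 and 1691, with no overlap. The change was 0.83 ± 0.19 under Control-768 (adjusted p = 0.00522) and 0.83 ± 0.19 under DMSO (adjusted p = 0.00485). Under 0.5 µM I-BET-762 the arrays read 3639, 3700.2 and 3021 in activated and 2861, 1829 and 2392 in resting cells, a change of 0.56 ± 0.19 (adjusted p = 0.0433). Leaving out any of 5 of those 6 arrays, that is each but resting replicate 1, ended that call, with adjusted p between 0.0524 and 0.214, and so did a fit of those 2 groups alone (adjusted p = 0.16). Under 0.25 µM the change on this probe set was 0.54 ± 0.19 (adjusted p = 0.0724), without overlap, while the other 4 Klf6 probe sets rose by 0.80 to 0.99 (adjusted p between 0.00232 and 0.0475). The brightest probe set also passed when only probe sets of a mean above 64 were tested (adjusted p = 0.0368) and without resting 0.25 µM replicate 1 (adjusted p = 0.0182). All 5 Klf6 probe sets passed under Control-768 (0.76 to 1.14) and under 0.5 µM I-BET-762 (0.56 to 0.82), and 4 passed under DMSO; 1447448_s_at and 1459718_x_at were designed from the same accession and are not separate evidence.

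Klf13, first described in human T cells as an activator of the chemokine gene CCL5, was bright and fell with restimulation under 0.5 µM I-BET-762. Under 0.5 µM I-BET-762 it read 1537, 1759 and 1628 in activated and 2430.1, 2269 and 3296 in resting cells, a change of -0.68 ± 0.15 (adjusted p = 0.00379; 0.0873 with only these 2 groups in the fit). Under Control-768 it read 1576, 1834 and 1639 in activated and 2302, 2506 and 2048 in resting cells, a change of -0.44 ± 0.15 (adjusted p = 0.0628). The groups did not overlap in either case. The changes under DMSO (-0.45 ± 0.15, adjusted p = 0.0539) and 0.25 µM (-0.32 ± 0.15, adjusted p = 0.209) missed the threshold too. With 1 probe set per gene, the Control-768 and DMSO values passed (adjusted p = 0.0483 and 0.0423). The Control-768 value also passed without the arrays numbered 3 (-0.49, adjusted p = 0.0431), and the DMSO value without activated DMSO replicate 2 (adjusted p = 0.0278). The next brightest Klf13 probe set, 1432543_a_at, changed by -0.70 ± 0.21 under 0.5 µM (adjusted p = 0.0216) and had a value of -0.52 ± 0.21 under Control-768 (adjusted p = 0.1003).

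Klf3, a repressor that acts through the corepressor CtBP, fell with activation under 0.5 µM I-BET-762. Its arrays read 166, 156 and 104 in activated and 471, 372 and 480.1 in resting cells, a change of -1.55 ± 0.28 (adjusted p = 0.000558). Of its 7 probe sets, 3 fell, the others being 1429360_at (-1.02 ± 0.20) and 1421604_a_at (-0.90 ± 0.23), while the second brightest, 1431630_a_at, had a value of -0.09 ± 0.18 (adjusted p = 0.804). Under Control-768 they read 65.7, 77.2 and 45.3 in activated and 117, 125 and 77.8 in resting cells, a change of -0.64 ± 0.28 (adjusted p = 0.137). The activated arrays were below the resting ones in both cases, by a narrow margin under Control-768. The changes under DMSO and 0.25 µM were -0.77 ± 0.28 (adjusted p = 0.0652) and -0.59 ± 0.28 (adjusted p = 0.196). The DMSO value passed without 1 array, activated replicate 2 (adjusted p = 0.0318) or resting replicate 3 (adjusted p = 0.0361), and the 0.25 µM value without resting replicate 3 (adjusted p = 0.0357). Without the arrays numbered 3 of all groups both passed, at -0.89 under DMSO (adjusted p = 0.0107) and -0.90 under 0.25 µM (adjusted p = 0.0146).

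The other 3 members were not called between the states under any compound with all 24 arrays and no block. Klf7, named for its wide expression and known in neurons and lymphoid progenitors, had changes of -0.46 to -0.74 with an SE of 0.38. Under 0.25 µM its value of -0.74 (adjusted p = 0.245) passed without the arrays numbered 3, at -0.47 (adjusted p = 0.0486). It also passed with a block over both states (adjusted p = 0.0221), a pairing that was not assumed here. Klf10, an early gene induced by TGF-beta, had changes between -0.06 and 0.03 with an SE of 0.16; under Control-768 the 95% interval was -0.32 to 0.37. Klf4, a factor of pluripotency and of T cell growth arrest, was dim, with 33.7 to 67.8 (median 56.4) on 12 activated arrays and 30.8 to 59.4 (median 37.5) on 12 resting arrays. These levels are close to the array medians, and the Klf4 changes of 0.21 to 0.48 did not pass (adjusted p between 0.117 and 0.553).

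**Figure D2:**
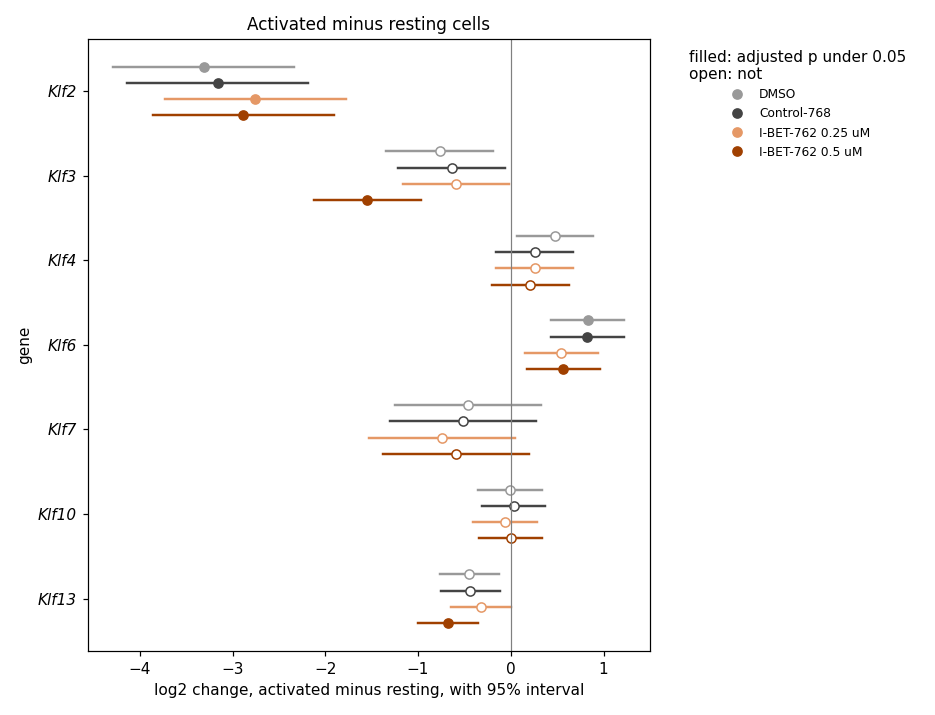
Log2 change with 95% interval of each Kruppel-like factor in activated against resting cells under each of the 4 compounds; filled points have an adjusted p under 0.05. Klf2 lies between -2.75 and -3.31 under all 4 compounds, and Klf6 lies above 0 and Klf13 below it.

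In resting cells, Klf3 rose under 0.5 µM I-BET-762 against Control-768 and the other 6 members were not called. That is 1 of 7 members and 2 of 23 probe sets, where 0.753% of all probe sets were called and 0.264% were called higher. Klf3 (1454666_at) averaged 441 ± 60.1 under 0.5 µM I-BET-762 and 107 ± 25.4 under Control-768 (n = 3 each). The arrays read 144, 141 and 87 under DMSO, 117, 125 and 77.8 under Control-768, 197, 149 and 74.7 under 0.25 µM and 471, 372 and 480.1 under 0.5 µM. All 3 arrays at 0.5 µM stood well above all 9 other resting arrays. Against Control-768 alone, 12.4% of all probe sets had groups without overlap, in either direction. The change against Control-768 was 1.91 ± 0.28 (3.76-fold, 95% interval 1.34 to 2.49, adjusted p = 0.00078), and with only these 2 groups in the fit the adjusted p was 0.058.

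A dimmer Klf3 probe set, 1429360_at, read 155, 115 and 137 under 0.5 µM I-BET-762 and 65.3, 49.5 and 48 under Control-768, a change of 1.11 ± 0.20 (adjusted p = 0.00792). The remaining 5 Klf3 probe sets had values between 0.01 and 0.37 and were not called. Among them, 1431630_a_at was the second brightest at a mean of 116, and read 136, 122 and 117 under 0.5 µM and 99.5, 109 and 131 under Control-768 (0.13 ± 0.18, adjusted p = 0.921). The Klf3 probe sets thus differ, and which transcripts each detects was not tested here.

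At 0.25 µM, 0 of 7 members were called in resting cells by limma's test and 0 had an unadjusted p under 0.05 (background 0.04%). Klf3 had a value of 0.29 ± 0.28 (95% interval -0.29 to 0.86). The step between the concentrations was itself called for Klf3 only, at 1.62 ± 0.28 for 0.5 against 0.25 µM (1 of 7, background 0.0422%, adjusted p = 0.0313). That call was lost without any 1 of 4 arrays, replicates 1 and 3 at 0.5 µM (adjusted p = 0.179 and 0.236) and replicates 2 and 3 at 0.25 µM (adjusted p = 0.141 and 0.215), and without the arrays numbered 3 of all groups (1.21, adjusted p = 0.11). It was lost with only those 2 groups in the fit (adjusted p = 0.972) and with log2(intensity + 1) (adjusted p = 0.12), and passed with the replicate number as a block (adjusted p = 0.00179). Both concentrations together against both controls called Klf3 (1.01 ± 0.19, adjusted p = 0.0102; 1 of 7, background 0.999%). With the block 2 of 7 were called (background 3.08%), Klf3 higher and Klf7 lower, Klf7 at -0.52 ± 0.09 (adjusted p = 0.00325). With only those 4 groups in the fit the Klf3 adjusted p was 0.0718.

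Klf7 was lower on every resting array of 0.5 µM I-BET-762 than on any Control-768 array, and 12.4% of all probe sets did not overlap there, in either direction. Its call depended on how the arrays numbered 3 were treated. The Klf7 arrays are given by compound in the order of the replicate numbers. It read 1674, 1675 and 1314 under DMSO, 1644, 1799 and 1500.4 under Control-768, 1526, 1445 and 1157 under 0.25 µM and 1004, 1048 and 668 under 0.5 µM. The change against Control-768 was -0.87 ± 0.38 (adjusted p = 0.496) without the block and -0.87 ± 0.13 (adjusted p = 0.000906) with it, when 2.98% of all probe sets were called. The same-number differences were -0.70, -0.77 and -1.15. All 4 Klf7 probe sets had values between -0.86 and -0.99, and all 4 passed with the block (adjusted p between 0.000906 and 0.0118); they come from 1 accession and are not separate measurements of the cells. Without the arrays numbered 3 the change was -0.74 (adjusted p = 0.0247), and -0.45 for both concentrations against both controls (adjusted p = 0.0394).

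Klf2 was higher on all 3 resting arrays of 0.5 µM I-BET-762 (3267 to 4365) than on any Control-768 array (1466 to 2910.4). The change was 0.96 ± 0.47 (adjusted p = 0.58), and 0.96 ± 0.31 with the block (adjusted p = 0.127), which did not pass. Without the arrays numbered 3 it was 1.15 (adjusted p = 0.0433, background 1.8%), and for both concentrations against both controls it was 0.62 ± 0.33 (adjusted p = 0.692) with them and 0.80 (adjusted p = 0.0372) without. The resting array numbered 3 was above the others of its group under each compound.

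Klf10 read 585, 631 and 681 under 0.5 µM and 711, 735 and 912 under Control-768, without overlap, and its change of -0.30 ± 0.16 was not called (adjusted p = 0.655). Klf6, Klf13 and Klf4 had values of 0.21, 0.21 and -0.19, and their arrays overlapped with Control-768. Counting Klf2, Klf3, Klf7 and Klf10, the groups did not overlap for 4 of 7 members, where 12.4% of all probe sets did the same.

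In activated cells, 0 of 7 members were called at 0.5 µM against Control-768 by limma's test without a block; 3 had an unadjusted p under 0.05, and 0.424% of all probe sets were called. Klf3 read 166, 156 and 104 under 0.5 µM I-BET-762 and 65.7, 77.2 and 45.3 under Control-768, with no overlap, as for 11% of all probe sets. Its change was 1.003 ± 0.28 (adjusted p = 0.189), and 1.003 ± 0.21 with the replicate number as a block (adjusted p = 0.0173, background 1.81%). Of the 7 Klf3 probe sets, this was the 1 called with the block. The second brightest, 1431630_a_at, had same-number differences of 0.06, 0.05 and 0.39. Klf7 read 765, 897 and 289.6 under 0.5 µM and 1491, 1368 and 731 under Control-768. Each array was below its same-numbered control, by -0.95, -0.60 and -1.29, while the groups overlapped; the array numbered 3 was the lowest of its group under each compound. Its change was -0.95 ± 0.38 (adjusted p = 0.571), and -0.95 ± 0.13 with the block (adjusted p = 0.000682), again on all 4 probe sets. Without the arrays numbered 3 the changes were 1.02 for Klf3 (adjusted p = 0.0421) and -0.77 for Klf7 (adjusted p = 0.0232).

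Klf2 in activated cells turned on 1 array. The arrays of 0.5 µM I-BET-762 read 767, 1013 and 162 against 176, 252 and 196 under Control-768, so 2 arrays were above all 3 control arrays and the array numbered 3 was below them. The same-number differences were 2.03, 1.94 and -0.26. The change was 1.24 ± 0.47 (95% interval 0.26 to 2.21, adjusted p = 0.525), with the block 1.24 ± 0.31 (adjusted p = 0.0558), 2.02 without activated 0.5 µM replicate 3 (adjusted p = 0.00984) and 1.99 without the arrays numbered 3 of all groups (adjusted p = 0.00275). For both concentrations against both controls it was 1.03 ± 0.33 (adjusted p = 0.274), and 1.03 ± 0.22 with the block (adjusted p = 0.0176). In that pooled comparison 0 of 7 members were called without the block (3 at an unadjusted p under 0.05, background 0.626%) and 3 of 7 with it (background 2.3%), Klf2 and Klf3 higher and Klf7 lower. Klf3 was called there on its brightest probe set only. Without the arrays numbered 3 the pooled values of Klf2 (1.46, adjusted p = 0.00137) and Klf7 (-0.56, adjusted p = 0.0157) passed.

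At 0.25 µM, 0 of 7 members were called in activated cells (0 at an unadjusted p under 0.05, background 0.0355%), and 0 of 7 differed between the concentrations (1 at an unadjusted p under 0.05, background 0.0111%). The 0.25 µM values lay on the same side as those at 0.5 µM for Klf2 (0.63 ± 0.47), Klf3 (0.33 ± 0.28), Klf7 (-0.48 ± 0.38) and Klf10 (-0.29 ± 0.16); both concentrations share the Control-768 arrays. Klf10 read 799, 851 and 745 under Control-768, 682, 592 and 678 under 0.25 µM and 695, 669 and 536 under 0.5 µM, with no overlap between Control-768 and 0.5 µM (as for 11% of all probe sets) or 0.25 µM (9.46%), and was not called at 0.5 µM (-0.33 ± 0.16, adjusted p = 0.747). Klf6, Klf13 and Klf4 had values of -0.05, -0.04 and -0.24 at 0.5 µM.

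**Figure D3:**
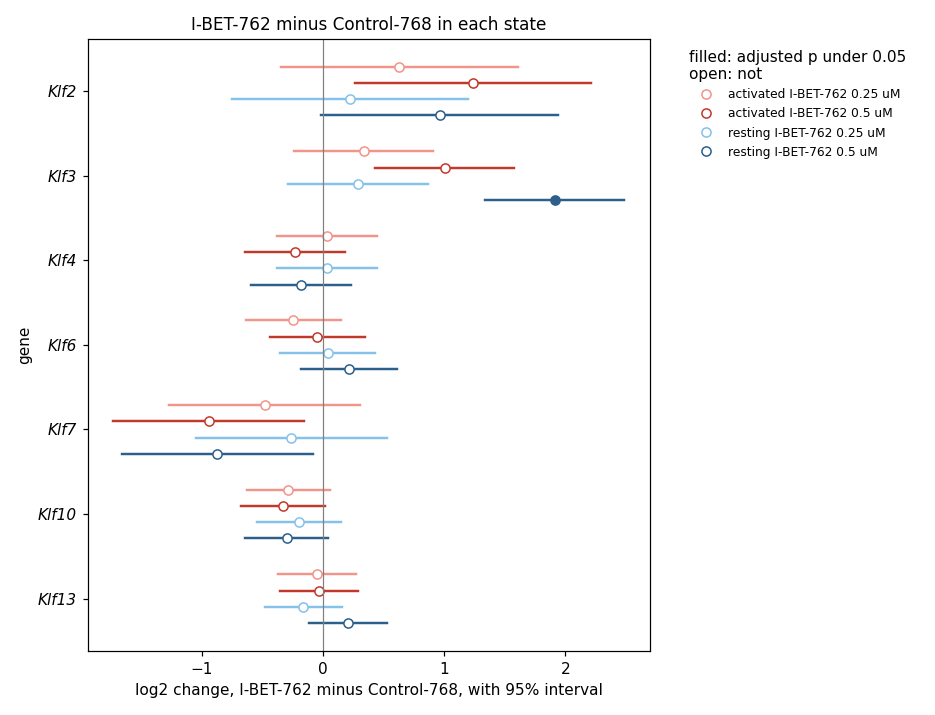
Log2 change with 95% interval of each Kruppel-like factor under 0.5 and 0.25 µM I-BET-762 against Control-768, in activated and resting cells, without the replicate block; filled points have an adjusted p under 0.05. The Klf3 value in resting cells at 0.5 µM (1.91) is the one filled point; the intervals of Klf2 and Klf7 are the widest.

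**Figure D4:**
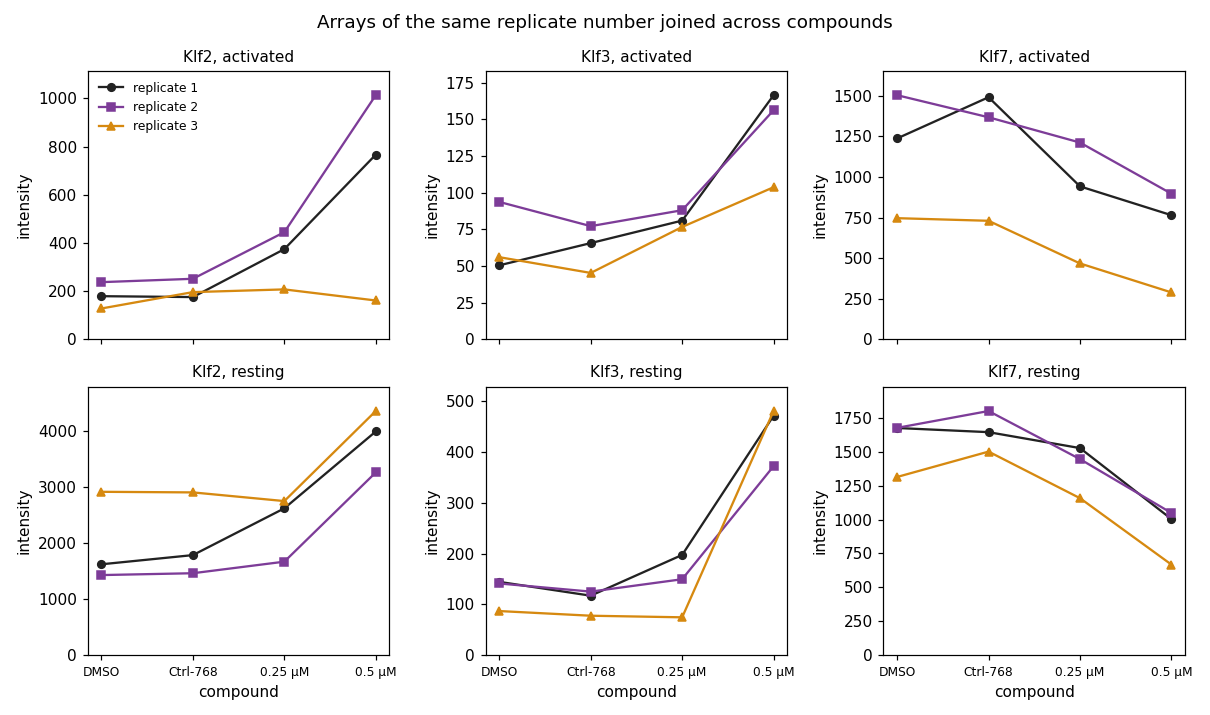
Intensity of Klf2, Klf3 and Klf7 with arrays of the same replicate number joined across compounds in each state. Activated replicate 3 of Klf2 is at 162 under 0.5 µM I-BET-762 where replicates 1 and 2 reach 767 and 1013, and all 3 lines of Klf7 are lower under 0.5 µM than under Control-768.

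Control-768 against DMSO called 0 of 7 members in activated and 0 of 7 in resting cells by limma's test, with 0 at an unadjusted p under 0.05 in each state and a background of 0%. The 95% intervals of Klf2 were -0.77 to 1.18 in activated and -0.92 to 1.03 in resting cells, and changes within them could not be told from 0 with 3 arrays a group. Those of Klf3 were -0.63 to 0.52 in activated and -0.76 to 0.39 in resting cells.

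Whether the response to I-BET-762 differed between the states was tested as an interaction, and 0 of 7 members were called at 0.5 µM or at 0.25 µM (background 0% each). At an unadjusted p under 0.05 there was 1 member at 0.5 µM, Klf3, and 0 at 0.25 µM. The Klf3 term was -0.91 ± 0.39 (unadjusted p = 0.0306, adjusted p = 1), which is the response of activated cells less that of resting cells. The Klf2 and Klf7 terms at 0.5 µM were 0.28 ± 0.66 and -0.07 ± 0.53. A difference between the states in the response of Klf3 was therefore not established.

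Ordered by mean level, Klf2 was highest in resting cells under 0.5 µM I-BET-762, followed after a gap by resting cells under 0.25 µM, Control-768 and DMSO, whose arrays overlapped. After another gap came activated cells under 0.5 µM, 0.25 µM, Control-768 and DMSO, each overlapping its neighbour. Klf3 was highest in resting cells under 0.5 µM, and each of the other 7 groups overlapped its neighbour in the order, activated cells under 0.5 µM being the next. For Klf4, Klf6, Klf7, Klf10 and Klf13 every neighbouring pair of groups overlapped. As a description of the 24 arrays, state accounted for 82% of the sum of squares of Klf2 (compound 8.21%), 72% of Klf6 (compound 2.99%) and 63.5% of Klf13 (compound 6.5%). The split was the other way for Klf3, with 30% for state and 51.2% for compound, and for Klf10, with 0.0777% and 34.8%. Most of the Klf10 sum of squares, 64.5%, lay within groups. Klf7 had 21.7% for state, 33.9% for compound and 43.7% within groups, where the arrays numbered 3 lay 0.74 below the group means in activated and 0.25 below in resting cells on average.

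**Figure D5:**
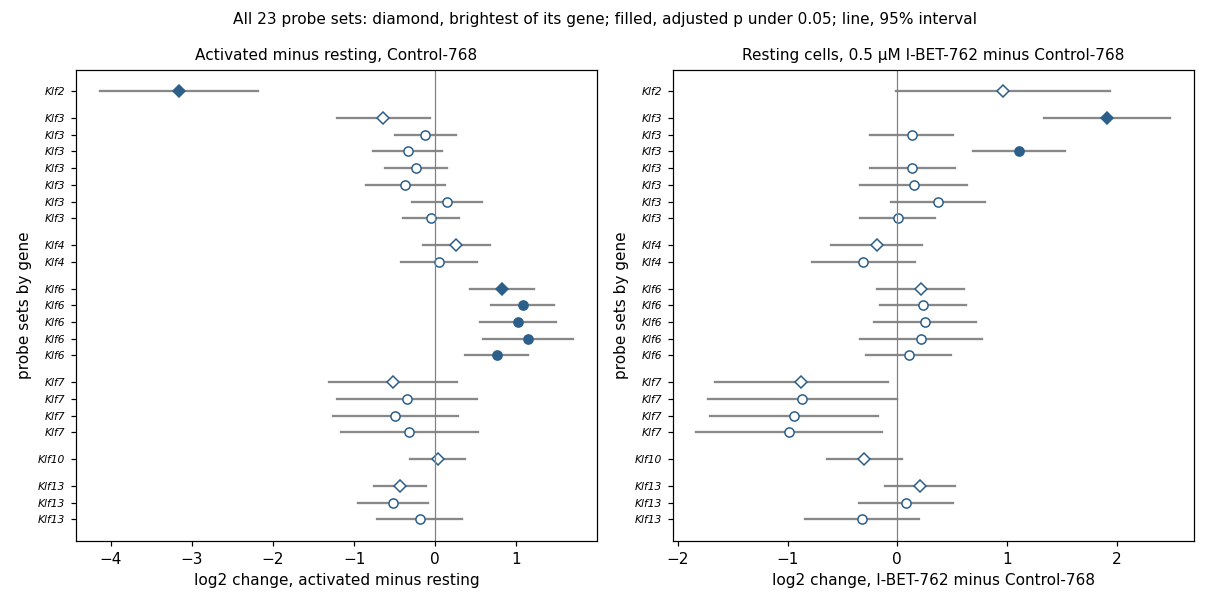
Log2 change with 95% interval of all 23 probe sets, grouped by gene, in activated against resting cells under Control-768 (left) and under 0.5 µM I-BET-762 against Control-768 in resting cells (right); diamonds mark the brightest probe set of a gene and filled symbols an adjusted p under 0.05. The 5 Klf6 probe sets lie together (0.76 to 1.14 with activation under Control-768) and so do the 4 Klf7 probe sets (-0.86 to -0.99 under 0.5 µM I-BET-762 in resting cells), while those of Klf3 spread from 0.01 to 1.91.

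Among 16 measured genes of the other KLF and SP family, 2 rose with activation under Control-768 and 0 fell, beside 7.8% higher and 7.02% lower among all probe sets, with a median of 0.01, equal to that of all probe sets. Klf16, a repressor of the same group as Klf13, rose by 0.86 ± 0.20 (adjusted p = 0.0066) and Sp4, an activator best known in neurons, by 0.67 ± 0.21 (adjusted p = 0.0381). Klf16 averaged 1512 ± 106 in activated and 833 ± 139 in resting cells under Control-768 (n = 3 each). Under 0.5 µM I-BET-762, 1 rose (Klf16, 1.22 ± 0.20, adjusted p = 0.000333) and 1 fell (Klf12, a CtBP-binding repressor, -0.61 ± 0.18, adjusted p = 0.0235), beside 9.91% higher and 7.89% lower among all probe sets. With I-BET-762 at 0.5 µM against Control-768, 0 of 16 were called in activated (background 0.424%) and 0 of 16 in resting cells (background 0.753%).

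Of 13 measured regulators upstream of Klf2 and Klf4, 1 rose and 3 fell with activation under Control-768 (median -0.13), beside the same 7.8% and 7.02%. Pik3ip1, an inhibitor of PI3 kinase, fell by 3.18 ± 0.40 on the log2 scale (adjusted p = 4.45e-05), a size close to that of Klf2. Foxo3, a forkhead factor restrained by PI3 kinase signalling, fell by 0.89 ± 0.17 (adjusted p = 0.00136) and Mef2a, which acts on Klf2 in endothelium, by 0.37 ± 0.11 (adjusted p = 0.0327). Fbxw7, a ubiquitin ligase component that marks Klf2 protein for breakdown, rose by 0.97 ± 0.26 (adjusted p = 0.0162). Under 0.5 µM I-BET-762, Fbxw7 and the kinase gene Mapk7 (0.45 ± 0.15, adjusted p = 0.0373) rose and Pik3ip1 and Foxo3 fell with activation (2 higher and 2 lower, median -0.02), beside 9.91% higher and 7.89% lower. With 0.5 µM I-BET-762 against Control-768, 0 of 13 were called in activated (background 0.424%) and 0 of 13 in resting cells (background 0.753%).

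Of 10 measured genes reported as KLF targets in lymphocytes, 0 rose and 3 fell with activation under Control-768 (median -0.18), where 7.02% of all probe sets were lower, and 0 rose and 4 fell under 0.5 µM I-BET-762 (median -0.50), where 7.89% were. Cdkn1b, the cell cycle inhibitor p27, changed by -2.46 ± 0.43 (adjusted p = 0.000701), S1pr4, a sphingosine phosphate receptor, by -1.37 ± 0.29 (adjusted p = 0.00297) and Itgb7, a gut-homing integrin, by -0.75 ± 0.22 (adjusted p = 0.0275) under Control-768. S1pr1, the Klf2 target that lets T cells leave lymph nodes, changed by -1.66 ± 0.54 under 0.5 µM (adjusted p = 0.0393) and had a value of -1.59 ± 0.54 under Control-768 (adjusted p = 0.0557). In resting cells 0 of 10 were called under 0.5 µM I-BET-762 against Control-768 (median -0.04, background 0.753%). Among them Ccl5, the target reported for Klf13, had the smallest p, with a value of 2.50 ± 0.66 (adjusted p = 0.0992).

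All 10 genes on the list of KLF cofactors were measured, and with activation under Control-768 1 rose and 1 fell, beside 7.8% and 7.02% of all probe sets. Ctbp2, a CtBP corepressor of the kind Klf3 binds, rose by 1.19 ± 0.25 (adjusted p = 0.0027), and Sin3a, the corepressor bound by Klf10 and Klf13, fell by 0.70 ± 0.12 (adjusted p = 0.000736). Hdac2, a histone deacetylase gene (0.54 ± 0.17, adjusted p = 0.0327), rose and Sin3a fell under 0.5 µM I-BET-762 (1 higher and 1 lower), beside 9.91% and 7.89%. Ctbp2 was also the 1 of 10 called lower for both I-BET-762 concentrations against both controls in activated cells, at -0.86 ± 0.18 (adjusted p = 0.0205, background 0.433% lower). It averaged 116 ± 26.3 under DMSO, 109.7 ± 40.4 under Control-768, 50.5 ± 14.1 under 0.25 µM and 57.9 ± 15.3 under 0.5 µM (n = 3 each), a dim range. Of the 9 TGF-beta pathway genes that surround Klf10, 2 rose and 1 fell with activation under Control-768 (median 0.46), beside 7.8% and 7.02% of all probe sets. Ski and Skil, inhibitors of SMAD signalling, rose by 1.40 ± 0.11 (adjusted p = 5.93e-07) and 1.53 ± 0.17 (adjusted p = 9e-06). Smad3, a receptor-activated SMAD, fell by 0.47 ± 0.15 (adjusted p = 0.0388). Under 0.5 µM I-BET-762, 5 of the 9 rose with activation and 0 fell (median 0.57), beside 9.91% higher and 7.89% lower. They were Ski, Skil, the SMAD corepressor gene Tgif1 (1.09 ± 0.31, adjusted p = 0.019), the ligand gene Tgfb1 (0.84 ± 0.23, adjusted p = 0.0126) and the receptor gene Tgfbr1 (0.57 ± 0.18, adjusted p = 0.0364). Smad3 was also the 1 of 9 called in resting cells under 0.5 µM I-BET-762 (background 0.753%). It read 663 ± 161 against 1107 ± 71.5 under Control-768 (n = 3 each), a change of -0.75 ± 0.15 (adjusted p = 0.0155).

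The genes whose levels ran most like each member over the 24 arrays were ranked by Pearson's r among 9353 genes, as a description; the arrays share the state and compound groups. For Klf2 they were Rasa3 (r = 0.98), Saraf and Rb1 (r = 0.975 each), and Rasa3 changed by -3.00 with activation under Control-768. For Klf3 they were Ssh2 (r = 0.913), Cept1 (r = 0.907) and Tbc1d20 (r = 0.9), and for Klf6 Kmt2a (r = 0.949), Syvn1 (r = 0.938) and Gnaq (r = 0.929). For Klf7 they were Edem2 (r = 0.962), Ramp1 (r = 0.951) and Plin2 (r = 0.949), and for Klf13 Map3k1 (r = 0.955), Baz2a (r = 0.954) and Cbl (r = 0.944). Likeness was lower for Klf10, led by Gbp6 (r = 0.796), and for the dim Klf4, led by Cxcl10 (r = 0.725).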

How the data were processed

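The authors deposited 1 linear intensity per probe set and array; how they summarized and normalized it is not stated in the labels or files used here. Per the labels' protocols, RNA came from an RNeasy kit, went through 2 rounds of MessageAmp amplification and was biotin labelled. Of 45101 probe sets, 64 controls were left out; a platform table named 1 gene symbol for 34945, several for 932 and none for 9160. Values were taken as log2(intensity + 16) and fitted as 8 group means over all 24 arrays in limma 3.58.1 (R 4.3.3), with 16 residual and 3.66 prior degrees of freedom, two-sided, in 16 comparisons, with Benjamini-Hochberg adjustment over 45037 probe sets. The analysis was tested on simulated data with independent noise on each array and no effect of the replicate number. How such an effect bears on the calls was not tested there. The members, lists and tests were chosen with earlier results of these data known.

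The 7 members are named whatever their values. Of each further list at most 4 genes are named, by smallest p, in activated against resting cells under Control-768. The same limit was used in resting cells under 0.5 µM I-BET-762. Genes of these lists called in other comparisons that are counted here were named after their values were seen, without that limit. The series' design text calls the replicates biological; where they were separate animals is not stated, so p-values measure the spread between these samples. Over 18193 genes, deviations of same-numbered arrays correlated at 0.197 to 0.699 within resting and 0.155 to 0.564 within activated cells. Differently numbered arrays reached 0.301 within resting and 0.225 within activated cells, so the ranges overlapped. Where an array numbered 3 was compared with other numbers, the highest values were -0.16 and -0.101. The numbers were taken to pair arrays within a state, which these values show clearly only for number 3. Across states the same-numbered values were low, at -0.0495 to 0.186, and no pairing was assumed. For number 3 they were 0.044 to 0.155, above the highest value with other numbers, 0.011. The alternatives changed the added constant, the filter on dim probe sets, the normalization, the probe set, the control, the arrays in the fit and the block. Array number limits the precision: the median 95% interval reached 0.406 to either side between 2 groups and 0.573 in the interactions.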

Additional observations from a re-analysis of the deposited data

How the results depend on the processing

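Over all alternatives 1944 member values were recomputed; 1871 stayed on their side of the threshold, 22 lost a call, 50 gained one and 1 reversed. The reversed value is Klf3 in resting cells for both concentrations against both controls on its second brightest probe set, -0.0131 (adjusted p = 0.999). Activation lowered Klf2 under every alternative tried, and its call was lost under 0.5 µM I-BET-762 alone, when the 2 groups were fitted by themselves. Dim probe sets carry little information here, and 3 arrays a group limit every comparison.

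Members called out of 7 changed as follows in activated against resting cells. Under Control-768, 4 with a replicate block over both states. Under DMSO, 4 with that block, 4 with quantile normalization and 4 with probe sets of a mean above 64 only. Under 0.25 µM, 3 with that block, 3 without replicate 3 of all groups, 2 with the dim filter and 2 with the second brightest probe set. Under 0.5 µM, 1 with only the groups compared. Leaving out 1 array at a time gave 2 to 4 under DMSO, 1 to 2 under 0.25 µM and 3 to 4 under 0.5 µM. Changes under the same-state I-BET-762 comparisons follow. For 0.5 µM against Control-768 in resting cells, the count was 0 with only the groups compared, 0 with the second brightest probe set, 2 with the replicate block within each state, 2 with the block over both states and 3 without replicate 3 of all groups. In activated cells it was 2 with either block, 3 without replicate 3 and 0 to 1 leaving out 1 array. For both concentrations against both controls it was 0 (groups only), 0 (second brightest), 2 (block within states) and 3 (without replicate 3) in resting cells, and 3 (block within states), 2 (block over both states), 2 (without replicate 3) and 0 to 1 (leaving out 1 array) in activated cells. For 0.5 against 0.25 µM in resting cells it was 0 with log2(intensity + 1), with only the groups compared, with the second brightest probe set and without replicate 3, and 0 to 1 leaving out 1 array. The block changed no other count by over 1.5 times, and in the interactions 0 members were called under any alternative. The share of all probe sets called moved too. For 0.5 µM against Control-768 it was 0.753% in resting and 0.424% in activated cells. It was 1.8% and 1.31% without replicate 3, and 2.98% and 1.81% with the block within states. For both concentrations against both controls it was 0.999% and 0.626%, 2.51% and 2% without replicate 3, and 3.08% and 2.3% with that block. For activated against resting cells under 0.25 µM it was 10.5%, and 14.8% without replicate 3. Under DMSO it was 15.8%, and 20.7% without replicate 3, and under Control-768 it was 14.8% and 19%. Under 0.5 µM it was 17.8% and 16.7%. Shares under the other alternatives, such as the block over both states or quantile normalization, are not given. The member counts there have no background beside them. The causes of these changes in count were not tested.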
